A study of Drosophila melanogaster with 3 samples.

Results

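The 260 microRNA (miRNA) genes of the Drosophila melanogaster genome were examined for nearby binding of CG5180, a protein still known by its annotation number. They were chosen as the Ensembl genes on the 6 chromosome arms 2L, 2R, 3L, 3R, 4 and X whose symbol begins with mir-, a rule that takes in let-7 as mir-let7 and bantam as mir-ban. They are 260 of 23973 annotated genes on these arms. Each entry is the hairpin, the folded RNA precursor, with a median length of 92 bp and a range of 50 to 174 bp. Hairpins within 10 kb of each other were counted as 1 locus, which gave 198 loci, of which 27 held at least 2 hairpins. The measurement was chromatin immunoprecipitation followed by sequencing (ChIP-seq) with an antibody against green fluorescent protein (GFP), on whole embryos of mixed sex aged 0 to 16 h. The embryos came from 1 transgenic line of flies that stably express CG5180 with GFP at its C-terminal end, and what drives the tagged copy is not given in the sources used here. There were 3 biological replicates in a single group, all carrying the tag, and no untagged or control library was analysed here. Whether regions near hairpins would also be enriched in any ChIP for GFP was not tested.

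A miRNA gene is first transcribed as a long primary transcript (pri-miRNA), often several kilobases long, from which the hairpin is cut in the nucleus. The hairpin is then diced into a mature strand that guides Argonaute proteins to messenger RNAs, chiefly through its seed, the bases just after its 5′ end. Many fly hairpins lie in the exon of a noncoding host RNA or in the intron of a protein-coding gene, so the start site that matters for transcription can lie far from the hairpin. In the fly embryo miRNAs are known to clear maternal messages, to fine-tune segment and neuron identity, and to restrain cell death.

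The mature strands of hairpins with a nearby peak fall into several seed families, and members with and without a peak are shown so that shared seeds can be compared. The RefSeq annotation of genome Release 6 (dm6) named all 260 hairpins, with 481 mature sequences that hold 426 different seeds. The capitals mark the seed, bases 2 to 8 counted from the 5′ end. The strands of mir-996 and mir-92b, whose hairpins had no peak within 2 kb, stand beside those of mir-279 and mir-92a, which had one.
mir-276a-3p, chromosome arm 3L: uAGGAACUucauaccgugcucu
mir-279-3p, chromosome arm 3R: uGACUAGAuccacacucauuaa
mir-996-3p, chromosome arm 3R: uGACUAGAuuucaugcucgucu
mir-ban-3p, chromosome arm 3L: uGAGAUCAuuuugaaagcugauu
mir-92a-3p, chromosome arm 3R: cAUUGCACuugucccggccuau
mir-92b-3p, chromosome arm 3R: aAUUGCACuagucccggccugc
mir-13a-3p, chromosome arm 3R: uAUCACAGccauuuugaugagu
mir-13b-1-3p, chromosome arm 3R: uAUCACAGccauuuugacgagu
mir-2c-3p, chromosome arm 3R: uAUCACAGccagcuuugaugggc
mir-277-3p, chromosome arm 3R: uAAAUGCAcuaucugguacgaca
mir-34-5p, chromosome arm 3R: uGGCAGUGugguuagcugguugug
mir-375-3p, chromosome arm 2L: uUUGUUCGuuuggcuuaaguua
mir-282-5p, chromosome arm 3L: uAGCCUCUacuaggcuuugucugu

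The promoters of 2 primary transcripts are shown because a strong peak summit falls inside them, and the hairpin of mir-4962 because it is the only one with a summit inside it. The promoter windows run from 250 bases before to 50 bases after an annotated transcription start site (TSS), on the transcript's strand, in dm6. The start nearest the summit was used. The host RNA of mir-276a, lncRNA:CR46006, is shown at chr3L:10363769-10364068 on the + strand. In its window the capitals mark the summit at base 217 and the start site at base 251, counted from 1 at the 5′ end. The host RNA of mir-279 and mir-996, lncRNA:CR31044, is shown at chr3R:29214312-29214611 on the + strand, with the summit at base 137 and the start site at base 251. The hairpin of mir-4962 lies at chrX:3777382-3777505 on the + strand, and the capital marks the summit at base 23.
Promoter at mir-276a: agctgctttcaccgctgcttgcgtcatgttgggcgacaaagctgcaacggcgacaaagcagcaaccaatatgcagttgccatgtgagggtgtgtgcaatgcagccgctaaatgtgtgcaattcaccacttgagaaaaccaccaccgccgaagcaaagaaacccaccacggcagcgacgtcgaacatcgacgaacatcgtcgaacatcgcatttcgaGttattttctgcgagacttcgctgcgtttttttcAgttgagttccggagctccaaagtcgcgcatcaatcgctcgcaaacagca
Promoter at mir-279 and mir-996: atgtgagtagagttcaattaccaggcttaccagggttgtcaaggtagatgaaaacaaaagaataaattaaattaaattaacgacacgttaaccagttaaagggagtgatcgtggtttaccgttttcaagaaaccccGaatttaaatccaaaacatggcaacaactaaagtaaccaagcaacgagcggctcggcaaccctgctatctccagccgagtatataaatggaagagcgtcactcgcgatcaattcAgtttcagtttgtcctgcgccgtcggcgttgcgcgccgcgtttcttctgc
Hairpin of mir-4962: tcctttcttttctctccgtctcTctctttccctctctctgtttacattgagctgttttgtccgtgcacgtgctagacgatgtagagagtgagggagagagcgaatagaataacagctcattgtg

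The authors deposited 1 peak list per replicate and 1 from the pooled replicates, each of 30000 peaks, and a list of 5400 peaks that passed the irreproducible discovery rate (IDR), a method that keeps peaks ranked alike between lists. The signal value of a peak is the score that the authors' peak caller gave it, and it serves here for ranks and descriptions inside 1 list. All 50 IDR peaks near hairpins have the same summit and signal value in the pooled list, so 1 value stands for both. IDR signal values run from 182 to 50504 and rank 1 is the strongest peak. The 5400 strongest peaks of a replicate are called its strongest peaks, so that lists of equal length are compared. The number of reads behind each list is unknown.

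An IDR summit lay within 2 kb of 36 of the 260 hairpins (13.8%, Wilson 95% interval 10.2 to 18.6%), against 12.0% of all bases on the arms. By locus the count was 30 of 198 (15.2%, interval 10.8 to 20.8%). The interval for hairpins contains the share of bases, so a difference from the genome at large was not detectable with 260 hairpins. Among the strongest peaks of each replicate, a summit lay within 2 kb of 35 hairpins in replicate 1, 40 in replicate 2 and 30 in replicate 3 (35 ± 5, mean ± SD, n = 3). The matching shares of bases were 11.8% in replicate 1, 11.8% in replicate 2 and 12.0% in replicate 3. In the pooled list 108 hairpins had a summit within 2 kb (41.5%, interval 35.7 to 47.6%), against 40.9% of bases. Counting intervals cover counting error only, and hairpins of 1 cluster share peaks.

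The hairpins had a lower share than other short RNA genes, and no test was made of these differences. The share was 34.6% of 269 small nucleolar RNA (snoRNA) genes, which lie largely in introns of translation-related host genes, and 22.8% of 290 transfer RNA genes. Measured from the most upstream start site alone, it was 21.0% of 13945 protein-coding genes and 20.1% of 1944 long noncoding RNA (lncRNA) genes. At each distance plotted the hairpins stood between the bases and these classes, and within 5 kb the share was 30.0% of hairpins, 58.7% of snoRNA genes, 37.6% of transfer RNA genes, 34.0% of protein-coding starts and 23.9% of bases. The nearest IDR summit was at a median of 11078 bp over all 260 hairpins.

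**Figure D1:**
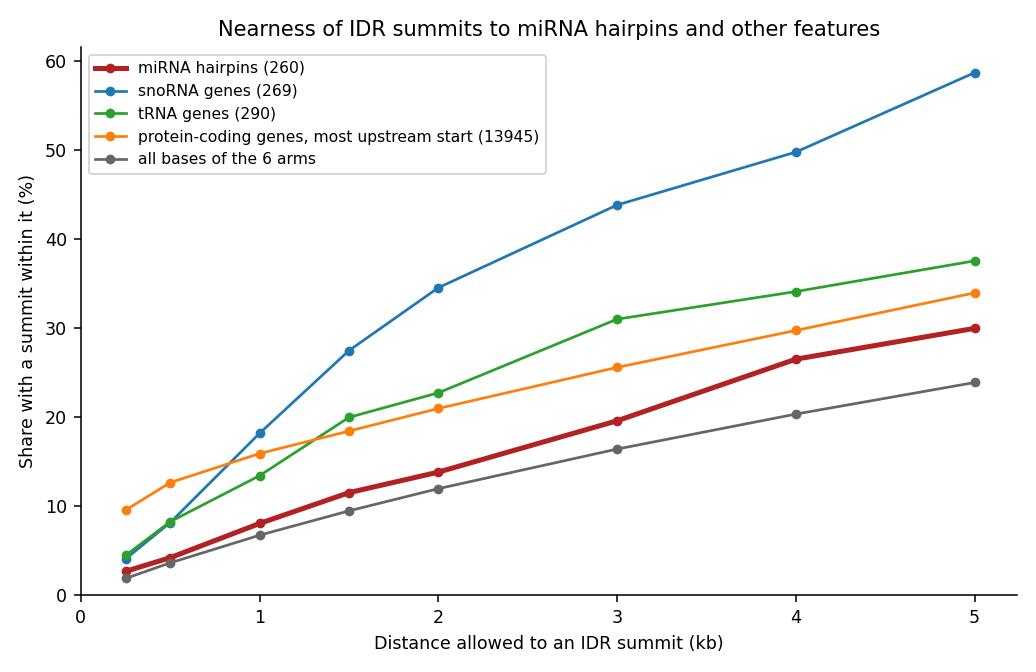
Share of miRNA hairpins, snoRNA genes, transfer RNA genes, protein-coding starts and bases (y axis, percent) with an IDR summit within the distance on the x axis (kb). At 2 kb the hairpins reach 13.8%, between all bases at 12.0% and the other gene classes at 21.0 to 34.6%.

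The share varied with the annotation a hairpin lies in, with intervals that overlapped. Of the 52 hairpins in an exon of a noncoding RNA gene, 14 had an IDR summit within 2 kb (26.9%, interval 16.8 to 40.3%), against 19.3% of RNA-gene exon bases. Hairpins were placed by their midpoint, and separate annotation entries for mature strands also counted as noncoding RNA genes. mir-3643, placed among the 52, has only an intron of OstDelta as host. Of the 119 hairpins in an intron of a protein-coding gene, 12 had one (10.1%, interval 5.86 to 16.8%), against 14.2% of such intron bases. Of the 47 intergenic hairpins, 8 had one (17.0%, interval 8.89 to 30.1%), against 8.45% of intergenic bases. Of these annotations, only the intergenic one had an interval that missed the share of bases, by less than 1 percentage point. Of its 8 hairpins, 3 (mir-310, mir-311 and mir-312) share 1 summit. Of the 39 hairpins in a protein-coding exon, 2 had a summit within 2 kb (5.13%, interval 1.42 to 16.9%). None of the 3 in an intron of an RNA gene did (interval 0 to 56.1%). The share of bases was not computed for protein-coding exons or RNA-gene introns.

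**Figure D2:**
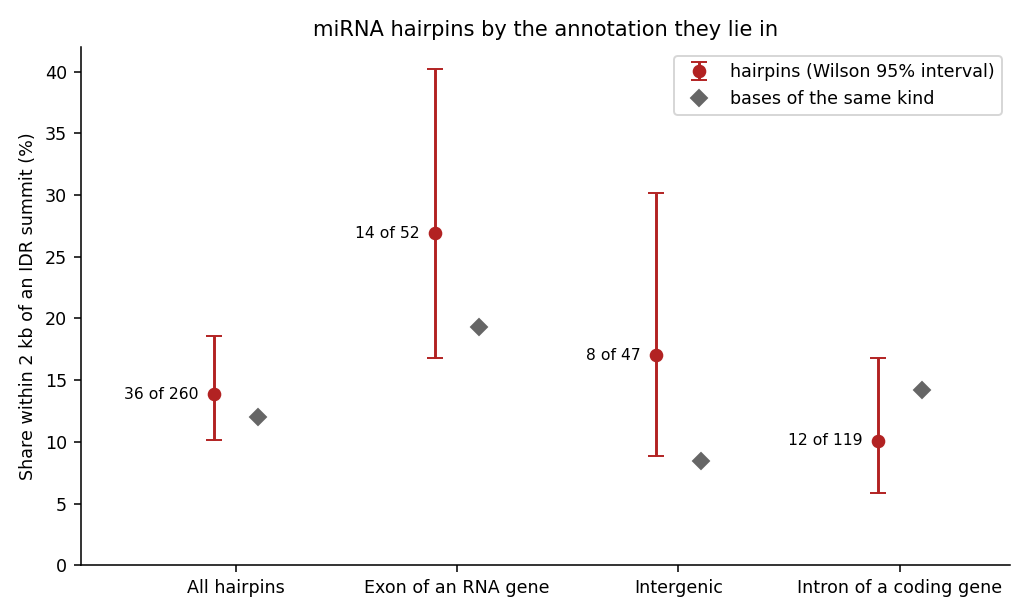
Share of hairpins within 2 kb of an IDR summit (red points, Wilson 95% intervals, with counts) beside the share of bases of the same annotation (grey diamonds), on a y axis in percent. Of the 3 annotations plotted, hairpins in exons of RNA genes stand at 26.9%, intergenic ones at 17.0% and those in introns of protein-coding genes at 10.1%, with overlapping intervals.

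Several of the strongest peaks at miRNA genes, those of mir-8, mir-276a and mir-279 among them, lay at annotated starts of their host RNAs. A host was any gene that holds a hairpin on the same strand, and an IDR summit lay within 250 bp of a start site of 8 of 34 lncRNA hosts (23.5%, interval 12.4 to 40.0%), against 4.89% of all lncRNA genes. RefSeq names 24 host RNAs as primary miRNA transcripts, and 7 of these had a summit at a start (29.2%, interval 14.9 to 49.2%). Among the strongest peaks of the replicates the count of lncRNA hosts was 10, 10 and 8 (9.33 ± 1.15, mean ± SD, n = 3 replicates). The shares of all lncRNA genes in the replicates were not computed. Hosts are long, with a median of 6116.5 bp against 662.5 bp for all lncRNA genes, while the median number of annotated start sites was 1 in both. The difference from all lncRNA genes, and the part of start number and length in it, were not tested. With a summit required within 100 bp of a start, the count was 5 hosts, against 2.16% of all lncRNA genes. Counting only the most upstream start of each host, within 250 bp, gave 7 hosts. The matching share of all lncRNA genes was not computed.

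The strongest of all 5400 IDR peaks lay at the start of the primary transcript of mir-8, a conserved miRNA known for growth control in the fat body and for neuronal survival through atrophin. Its summit was 183 bp from the start of lncRNA:CR43650 and 2520 bp upstream of the hairpin on arm 2R, with a signal value of 50504 in the IDR and pooled lists. The value was 22709 in replicate 1, 15820 in replicate 2 and 12187 in replicate 3, where it ranked 1, 2 and 1 of 30000. The same region, chr2R:16827974-16831257 and 3284 bp wide, ends 175 bp before the hairpin and holds a further summit at 966 bp upstream. That nearer summit had a signal value of 15811 (rank 59), with 6792 in replicate 1, 5361 in replicate 2 and 3785 in replicate 3. It lay 223 bp from another annotated start of the host. A separate peak 1478 bp downstream of the hairpin had a signal value of 246 (rank 3644).

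The promoter shown above for mir-276a, which acts in the adult brain through a dopamine receptor, held the strongest summit within 2 kb of any hairpin locus after that of mir-8. The summit lay 34 bp from a start of lncRNA:CR46006 and 1243 bp upstream of the hairpin, with a signal value of 8855 (rank 111) in the IDR and pooled lists. The value was 3838 in replicate 1, 2894 in replicate 2 and 2178 in replicate 3, with ranks of 111, 118 and 111. Replicate ranks therefore differed little at this site. The start with the summit is 1 of 4 annotated for lncRNA:CR46006 and is not the most upstream. The nearest protein-coding start was 48833 bp away, that of CG12362. The related hairpin mir-276b, which has the same seed AGGAACU, had no IDR summit within 2 kb. RefSeq names lncRNA:CR46006 the primary transcript of mir-276b and mir-276a, although mir-276b lies outside its Ensembl interval.

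The start of the primary transcript of mir-279 and mir-996, a pair that shares the seed GACUAGA, held 1 summit. mir-279 is known for blocking the formation of carbon dioxide-sensing neurons. The summit lay 114 bp from the start of lncRNA:CR31044, with a signal value of 1768 (rank 344) in the IDR and pooled lists, 668 in replicate 1, 643 in replicate 2 and 456 in replicate 3. It was 1137 bp upstream of mir-279 and 2736 bp upstream of mir-996, so the mir-996 hairpin is outside the 2 kb limit although the start of its transcript has the summit. mir-286 of the early zygotic cluster, which also has this seed, had no IDR summit within 2 kb.

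**Figure D3:**
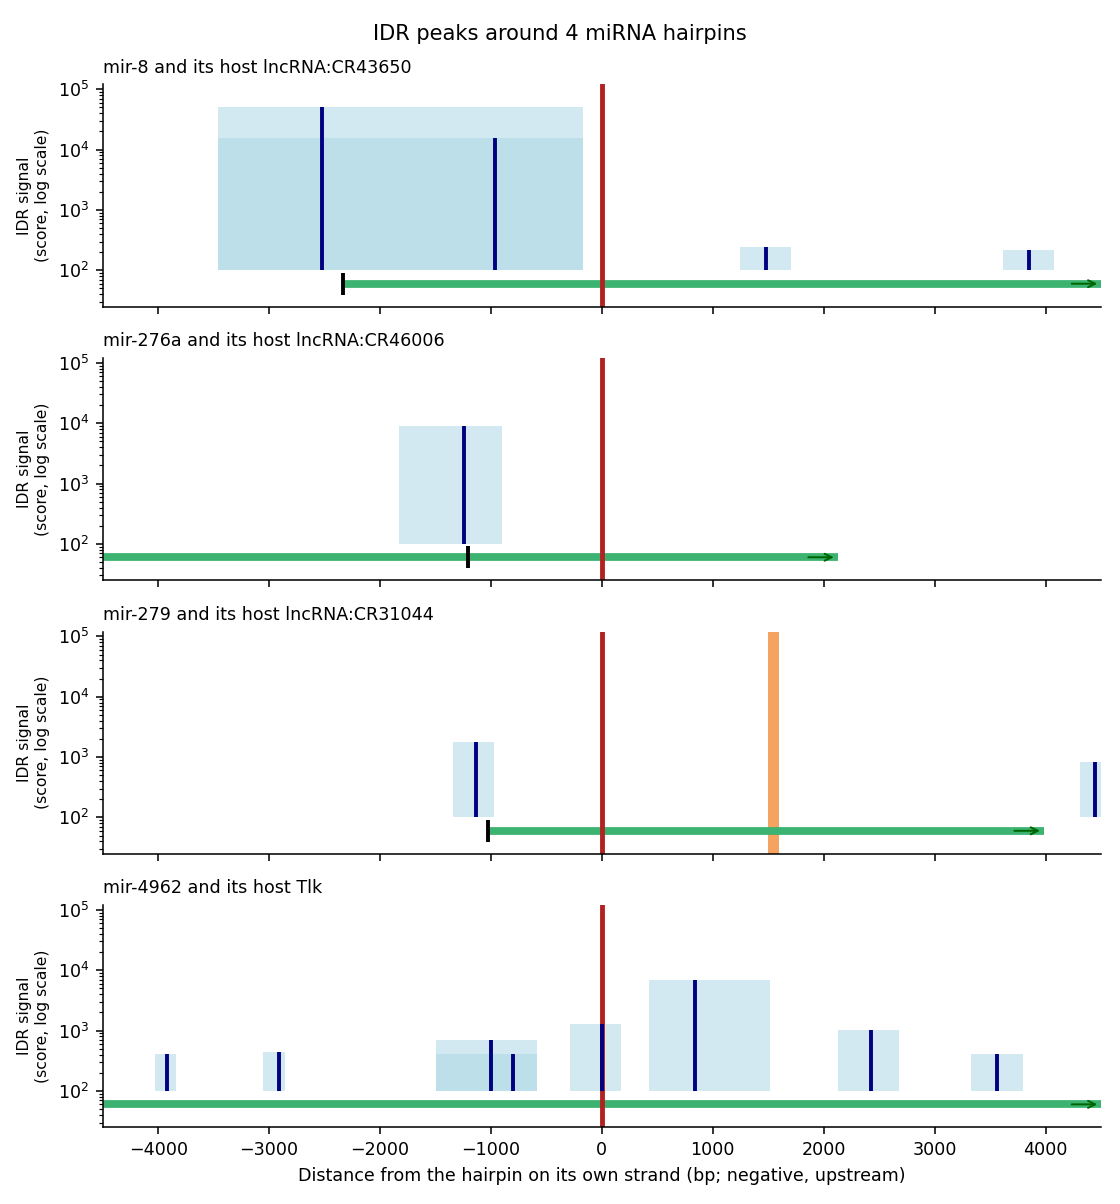
IDR peaks (pale blue intervals, dark blue summits) around mir-8, mir-276a, mir-279 and mir-4962, plotted by signal value (y axis, score, log scale) against distance from the hairpin in bp (x axis, negative upstream, red line at the hairpin, whose own length is not drawn). Green bars are the host genes with arrows in the direction of transcription, black ticks the annotated start nearest the strongest summit at the host's start and the orange band mir-996. No start is marked for Tlk, the host of mir-4962. At mir-8, mir-276a and mir-279 the strongest summit sits at 2520, 1243 and 1137 bp upstream, beside an annotated start of the host RNA. At mir-276a the host gene begins far outside the plot.

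The other 5 lncRNA hosts with a summit at a start had smaller or more distant peaks. At lncRNA:CR43314, which RefSeq names the primary transcript of mir-263a and whose hairpin FlyBase calls mir-bft (bereft), a miRNA that protects sensory bristle cells from death, the signal value was 4587 (rank 173). It was 1996 in replicate 1, 1479 in replicate 2 and 1170 in replicate 3, and the summit lay 17462 bp from the hairpin. The bantam host, lncRNA:CR43334, had 470 (rank 1617), with 137 in replicate 1, 201 in replicate 2 and 123 in replicate 3, at 13864 bp from the hairpin. bantam promotes growth and represses the cell death gene hid.
The host of mir-14, a suppressor of cell death that also acts in fat metabolism, had a summit 1 bp from its start with a signal value of 393 (rank 2019), and 165 in replicate 1, 137 in replicate 2 and 114 in replicate 3. That of mir-10, which lies in the Antennapedia complex of Hox genes, had 201 (rank 4760) at 6844 bp from the hairpin, near the lowest signal of the IDR list. Replicate 2 gave this last site 62.7 (rank 6587), outside its strongest peaks, while replicate 1 gave 98.8 (rank 3777) and replicate 3 gave 59.1 (rank 4297). lncRNA:Hsromega, a heat-inducible nuclear RNA that holds mir-4951, had 507 (rank 1466) at 20350 bp from the hairpin.

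Primary transcripts without an IDR summit within 250 bp of a start include those of let-7 with mir-100 and mir-125, mir-1, mir-9a, mir-124, mir-184, mir-92b and the cluster of mir-309. Those of mir-277 with mir-34, and of mir-13b-1 with mir-13a and mir-2c, had IDR summits inside the transcript but none at a start. For these the strongest summits lay 5708 bp and 1503 bp from the nearest host start.

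Of the 128 protein-coding hosts, 31 had an IDR summit within 250 bp of a start (24.2%, interval 17.6 to 32.3%), against 12.0% of all protein-coding genes. In the replicates' strongest peaks the count was 32, 36 and 35 (34.3 ± 2.08, mean ± SD, n = 3). The shares of all protein-coding genes in the replicates were not computed. The 128 hosts had a median of 2 annotated starts and 14094.5 bp, against 1 start and 2166 bp for all protein-coding genes. The part of start number and length in the share was not tested. With only the most upstream start counted, it was 16 hosts (12.5%, interval 7.84 to 19.3%), against 9.57% of all protein-coding genes, a share that the interval contains. CG45092 and chk share 1 interval and 1 summit and were counted separately. Any annotated start of a host was accepted, on either side of the hairpin. At jigr1 for mir-92a, and at Oda for mir-281-1 and mir-281-2, the start with the summit lay downstream of the hairpin. In 20 of the 31 the hairpin itself had no IDR summit within 2 kb, and in those 20 the summit at the start lay at a median of 14134.5 bp from the hairpin. Over all 31 the median was 8528 bp.

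The strongest protein-coding host starts were far from their hairpins. cv-c, the host of mir-2281, had a signal value of 30211 (rank 13), with 13050 in replicate 1, 10081 in replicate 2 and 7291 in replicate 3, at 85400 bp from the hairpin. SKIP, the host of mir-1010, had 29870 (rank 14), with 12656 in replicate 1, 10027 in replicate 2 and 7283 in replicate 3, at 159113 bp. Both starts ranked between 12 and 14 in each of the lists. CG13739, 1 of 3 hosts of mir-987, had 3378 at 38710 bp, while CG13954 and lncRNA:CR45918, which RefSeq names the primary transcript of mir-987, had no IDR summit at a start. E2f1, a cell-cycle transcription factor that hosts mir-11 and mir-998, had 268, and hth, a homeodomain cofactor of Hox proteins that hosts mir-4944, had 303 at 101310 bp.

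Among hairpins inside protein-coding genes, mir-4962 stood within a group of peaks. It lies in an intron of Tlk, a chromatin kinase, and had 4 IDR summits within 2 kb. The strongest lay 843 bp downstream with a signal value of 6868 (rank 132), and 2923 in replicate 1, 2321 in replicate 2 and 1678 in replicate 3. The summit inside the hairpin, shown above, had 1305 (rank 447), and the others had 694 and 414. The start of Tlk nearest the strongest summit was 1795 bp from it. A different start of Tlk was nearest the summit inside the hairpin, at 1345 bp. That different start was also nearest the summit of 694, at 320 bp, and that of 414, at 520 bp. Further IDR summits within 5 kb stood at 2426 and 3562 bp downstream and at 2915 and 3917 bp upstream.

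mir-4978 lies antisense in an intron of mam, which encodes the Notch coactivator mastermind, and also had 4 IDR summits within 2 kb. The strongest, 798 bp upstream, had a signal value of 3815 (rank 202), with 1679 in replicate 1, 1311 in replicate 2 and 872 in replicate 3. The others had 1239, 394 and 294. A stronger summit of 8893 (rank 110) stood at 2508 bp upstream, beyond the 2 kb limit. No protein-coding start was nearer than 2185 bp to any of the 4.

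The next 5 loci by signal had values below 1000 in the IDR list. mir-954 had its summit 8 bp upstream of the hairpin on chromosome 4 and 87 bp from the start of mav, a TGF-beta family ligand. The value there was 753 (rank 882), with 297 in replicate 1, 278 in replicate 2 and 209 in replicate 3. mir-9377, in an intron of Tis11, which encodes an RNA-binding protein of messenger RNA decay, had 717 (rank 938), with 228 in replicate 1, 286 in replicate 2 and 209 in replicate 3, at 1366 bp downstream. Another summit at 363 bp downstream had 456.
mir-282, in an exon of lncRNA:CR43626, had 671 (rank 1010), with 268 in replicate 1, 238 in replicate 2 and 158 in replicate 3, at 799 bp upstream and 371 bp from the host's nearest start. mir-92a, which with its host jigr1 acts in neural stem cells, had 568 (rank 1266), with 249 in replicate 1, 217 in replicate 2 and 109 in replicate 3. That summit lay 519 bp downstream of the hairpin and 127 bp from a start of jigr1. This start is itself downstream of mir-92a and upstream of mir-92b, which jigr1 also hosts. mir-967, in an intron of the growth regulator bun, had 557 (rank 1298), with 179 in replicate 1, 218 in replicate 2 and 158 in replicate 3, at 193 bp from a start of bun. At these 5 loci replicate 3 had the lowest signal value, and signal values are not scaled between the lists.

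**Figure D4:**
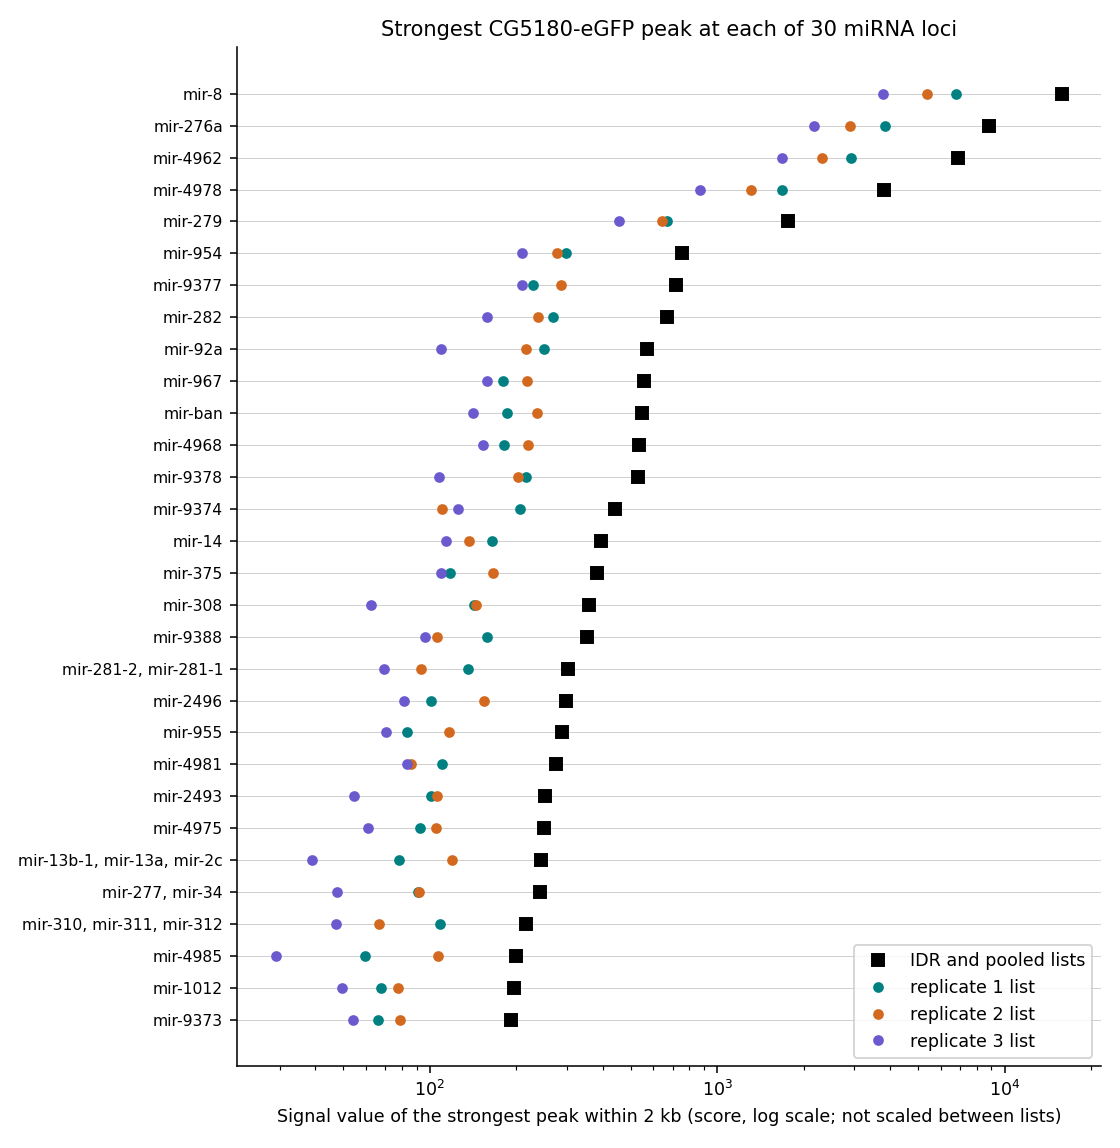
Signal value of the strongest peak within 2 kb (x axis, score, log scale) for the 30 loci with an IDR summit, in the IDR and pooled lists (black squares) and in the lists of replicates 1, 2 and 3 (coloured points). Values run from 15811 at mir-8 to 192 at mir-9373 in the IDR list, and the order of the top 5 loci is the same in each replicate.

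The remaining 20 loci had IDR signal values from 192 to 546. The strongest was that near bantam, whose peak 1460 bp upstream of the hairpin had 546 (rank 1338), with 185 in replicate 1, 237 in replicate 2 and 141 in replicate 3. A peak 358 bp downstream had 190, close to the end of the list. In protein-coding hosts, mir-4968 in Mob2 had 535 at 36 bp from a Mob2 start, mir-9378 in CG17124 had 530, and mir-9374 in the 5′ UTR of the nuclear receptor gene Hr39 had 440. mir-308 in RpS23, a ribosomal protein gene, had 358 at 1 bp from the RpS23 start, mir-2493 in CG42788 had 252, mir-4975 in CG45092 and chk had 249, mir-4985 in Fatp3 had 200, mir-1012 in Lerp had 197, and mir-9373 in the 5′ UTR of CG6231 had 192.

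mir-281-1 and mir-281-2, which share the seed GUCAUGG, lie in an intron of the antizyme gene Oda and in an exon of asRNA:CR46194. They share a peak of 302 at 139 bp from an Oda start and 104 bp from the start of the spliceosome gene SmD3. That Oda start lies downstream of these hairpins. Another shared peak had 197, at 305 bp from a start of asRNA:CR46194, and ranked 10752 in replicate 1. mir-375, known in mammals for its role in pancreatic islets, had 383 at 690 bp upstream and 182 at 716 bp downstream. The value of 182 is at the bottom of the IDR list. mir-277, which acts in branched-chain amino acid breakdown, and mir-34, linked to ageing of the brain, share a peak of 242, and mir-277 has another of 233. mir-9388 had 353, mir-2496 had 297, mir-955 had 289 and mir-4981 had 275, all in intergenic sequence.

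Of the 36 hairpins, 20 had a single IDR summit within 2 kb and 16 had at least 2, and the 50 different summits between them lay in 48 regions. Their median signal value was 325 (182 to 15811), against 313 for all 5400 IDR peaks. Of the 50, 7 were among the strongest 540 of the list and 25 among the strongest 2700. A summit of the strongest peaks of every replicate lay within 200 bp of 35 of the 50 (70.0%), against 68.7% of all IDR peaks. A start of a protein-coding gene lay within 250 bp of 11 of the 50 (22.0%, interval 12.8 to 35.2%), against 31.0% of all IDR peaks. By strength and replicate recovery, the peaks near hairpins were thus close to the list as a whole.

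The strongest summit lay upstream of the hairpin, on its own strand, for 26 of 36 hairpins (72.2%, interval 56.0 to 84.2%). By locus it was 23 of 30. Hairpins of a cluster share summits, so the interval for hairpins overstates the number of separate observations. The matching share was not computed for other gene classes, and a preference for the upstream side was not tested. The count was 12 of 14 for hairpins in exons of RNA genes (interval 60.1 to 96.0%). It was 8 of 12 in introns of protein-coding genes (interval 39.1 to 86.2%) and 4 of 8 in intergenic sequence (interval 21.5 to 78.5%). These intervals overlapped. The distance of the strongest summit from the hairpin's edge had a median of 996 bp and ran from 8 to 1960 bp. An IDR peak interval overlapped 5 of the 260 hairpins (1.92%), namely mir-4978, mir-9388, mir-9373, mir-954 and mir-4962. The share of bases under IDR peak intervals was not computed. The peak that overlaps mir-9388 had a signal value of 209 and no match within 200 bp in replicate 3.

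**Figure D5:**
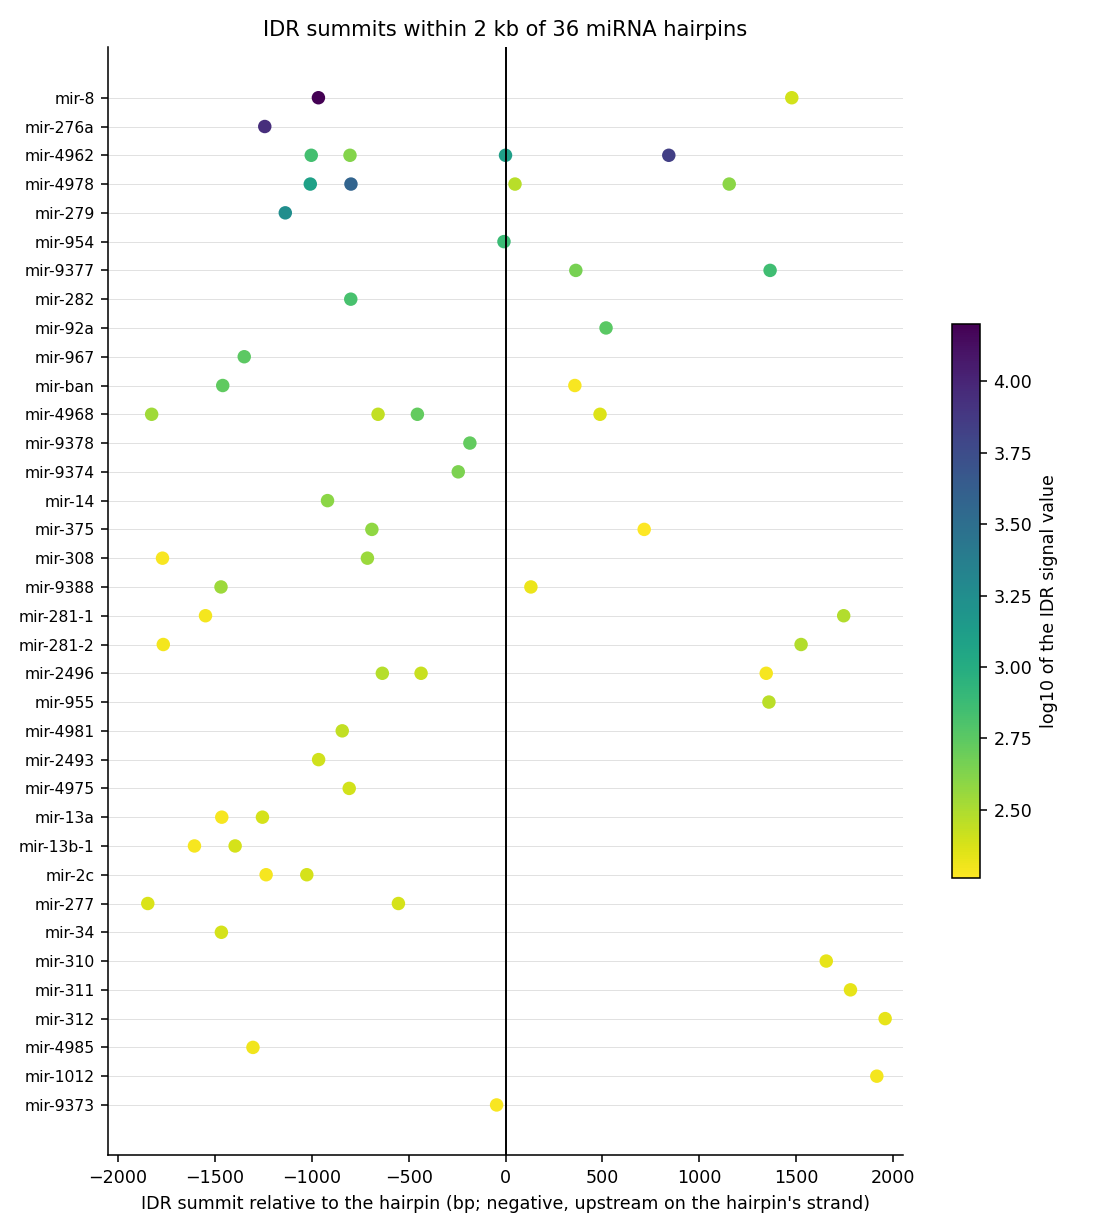
Position of each IDR summit within 2 kb of the 36 hairpins (x axis, bp from the hairpin's edge, negative upstream on the hairpin's strand), coloured by the log10 of the signal value, with hairpins ordered by their strongest summit from top to bottom. The strongest summit is upstream for 26 of 36, and only mir-4962 has a summit at 0. The matching upstream share of other gene classes was not computed.

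By developmental role, 5 of 12 hairpins of the growth and cell death group had an IDR summit within 2 kb (41.7%, interval 19.3 to 68.0%), against 13.8% of all hairpins and 12.0% of bases. They were bantam, mir-14, mir-2c, mir-13a and mir-13b-1, and the last 3 are 1 cluster with the same pair of peaks, so the interval overstates the number of separate observations. The cluster's stronger peak had 243 in the IDR list, 78.0 in replicate 1, 119 in replicate 2 and 38.9 in replicate 3, where it ranked 7706 and so fell outside the strongest peaks. mir-11, mir-278, mir-2a-1, mir-2a-2, mir-2b-1, mir-2b-2 and mir-13b-2 had none. In the pooled list 9 of the 12 had a summit within 2 kb, at values down to 61.2, against 41.5% of all hairpins and 40.9% of bases.

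Of 8 neural and sensory hairpins, mir-8 and mir-279 had IDR summits. mir-9a, which sharpens the choice of sensory organ precursors, mir-124 of neurons, mir-7 of photoreceptors and mir-996 had summits in the pooled list but not the IDR list, with values of 52.4, 60.5, 59.0 and 65.8. mir-bft and mir-263b had none in either list within 2 kb. Of the Hox group, mir-10, mir-iab-4 and mir-iab-8 had no IDR summit and pooled values of 132, 64.2 and 64.2, and mir-iab-4 and mir-iab-8 are opposite strands of 1 interval, so that a peak there cannot be given to either. The muscle miRNA mir-1 had a pooled value of 79.9 and no IDR summit, and mir-133 had no summit within 2 kb in any of the lists.

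None of the 8 hairpins of the mir-309 cluster, which is activated at the start of zygotic transcription and clears maternal messages, had an IDR or pooled summit within 2 kb. The nearest IDR summits to its members stood 21518 to 22497 bp away. In the replicate lists the strongest peak within 2 kb had 30.6 in replicate 1 and 18.3 in replicate 3, and replicate 2 had none. The let-7 cluster of mir-100, let-7 and mir-125, which times the change from larva to adult, likewise had none in the IDR or pooled list, with a peak of 31.1 in replicate 1. A count of 0 of 8 has a Wilson interval of 0 to 32.4%, and 0 of 3 one of 0 to 56.1%, so lower shares than the 12.0% of bases were not detectable.

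By seed, the AUCACAG family, which represses proapoptotic genes, has 14 hairpins, of which mir-13a, mir-13b-1, mir-2c and mir-308 had an IDR summit. The AUUGCAC family has 6, of which mir-310, mir-311, mir-312 and mir-92a had one, while mir-313 and mir-92b had none. Over all hairpins the share was 13.8%, and members of a family that lie in 1 cluster share peaks, so these counts do not set a family apart. mir-310, mir-311 and mir-312 share a single peak of 217 (rank 4326) that lies 36 bp from the start of the neighbouring gene qsm and is among the strongest peaks of replicate 1 only, and mir-313 is 2094 bp from it. In all, 33 seeds were shared by at least 2 hairpins.

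Just outside the 2 kb limit lay mir-313 at 2094 bp, mir-1000 at 2128 bp with a value of 322, mir-2282 at 2141 bp with 227 and mir-1009 at 2151 bp with 209. Just inside it were mir-312 at 1960 bp with 217 and mir-1012 at 1917 bp with 197. Summits of the strongest peaks of all 3 replicates lay within 2 kb of 26 hairpins, of which mir-2283 was the 1 without an IDR summit. The other 25 were among the 36, and mir-310, mir-311, mir-312, mir-4985 and mir-1012 each had a summit among the strongest peaks of 1 replicate.

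By chromosome arm, hairpins with an IDR summit within 2 kb numbered 12 of 55 on 2R (21.8%, interval 12.9 to 34.4%, against 11.9% of its bases) and 10 of 58 on 3R (17.2%, interval 9.64 to 28.9%, against 11.2%). They numbered 6 of 31 on 3L (19.4%, interval 9.19 to 36.3%, against 12.5%) and 4 of 56 on 2L (7.14%, interval 2.81 to 17.0%, against 13.0%). On X it was 3 of 58 (5.17%, interval 1.77 to 14.1%, against 12.1%) and on chromosome 4 it was 1 of 2, against 3.89% of its bases. The 12 hairpins on 2R include mir-310, mir-311 and mir-312 with 1 shared peak and mir-281-1 and mir-281-2 with shared peaks. Hairpins with a symbol number of 1000 or more had an IDR summit in 14 of 126 (11.1%), and the others in 22 of 134 (16.4%). Among loci with at least 2 hairpins it was 7 of 27 (25.9%, interval 13.2 to 44.7%). Among single hairpins it was 23 of 171 (13.5%, interval 9.13 to 19.4%). The intervals of each of the last 2 pairs overlapped. Loci of several hairpins cover more sequence than single hairpins, and no share of bases matched for this was computed.

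Both strands were searched for the letters of 3 short motifs, in windows reaching 100 bp to each side of a summit. GAGAGAG, the core of GAGA factor sites, was in 6 of 50 windows near hairpins (12.0%, interval 5.62 to 23.8%), against 6.74% of all IDR summits. It was found 3 times at the summit inside the hairpin of mir-4962, counting only matches that do not overlap on a strand. CAGGTAG, bound by the early activator Zelda, was in 0 of 50 against 1.06% of all, and TATCGAT, part of the DREF site, in 0 of 50 against 3.13%. A count of 0 of 50 has an interval of 0 to 7.13%, which contains both shares. The median GC content of the windows was 42.3% near hairpins and 40.3% over all IDR summits.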

How the data were processed

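Peak lists on dm6 from 3 biological replicates of CG5180-GFP ChIP-seq were used; lists on another build were not. Per the labels, chromatin was sheared by sonication. The aligner is not given in the sources used here, nor are the peak caller and the IDR threshold. Each peak carries a signal value, a score that the authors deposited per peak, with no fixed range and no scaling between lists.

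Hairpins and start sites were taken from Ensembl release 115 (BDGP 6), and mature strands and primary transcript names from the RefSeq annotation of Release 6 (FlyBase 6.54). A hairpin was counted when a summit lay within 2 kb of its edge. Replicate peaks were matched to IDR summits within 200 bp. Counts carry Wilson 95% intervals, and no test was made, because there is 1 group and hairpins are not replicates. The share of bases was computed exactly. The distance code was tested on simulated data with planted summits. Python 3.11.15, numpy 2.4.6 and matplotlib 3.10.9 were used.

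Every miRNA with an IDR summit within 2 kb is named, 10 loci are given with all lists, and members of 6 role groups (36 hairpins, mir-263a found as mir-bft) are described. The members and lists were chosen with earlier results of these data known. The count of host starts and its alternatives were added after seeing the data.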

Additional observations from a re-analysis of the deposited data

How the results depend on the processing

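The counts depended most on the distance and the number of peaks allowed. For hairpins, 11 had an IDR summit within 500 bp, 21 within 1000 bp and 78 within 5000 bp, against 36 within 2 kb. The shares were 4.23% within 500 bp, 8.08% within 1000 bp and 30.0% within 5000 bp. For bases they were 3.65%, 6.76% and 23.9%. With the 2700 strongest IDR peaks 18 hairpins had a summit, and the matching share of bases was not computed. For loci the count was 11 within 500 bp, 62 within 5000 bp and 18 with those 2700 peaks, against 30. The replicate mean was 10.3 within 500 bp, 19.7 within 1000 bp, 74 within 5000 bp, 18.3 with 2700 peaks and 134 with whole lists, against 35. Counting peak intervals gave 40 hairpins, and leaving out summits within 250 bp of a protein-coding start gave 27. Without 1 replicate in turn, the replicate mean was 32.5 to 37.5. The IDR list was not remade without a replicate. Instead, IDR peaks were kept only where the strongest peaks of both other replicates had a summit within 200 bp. This filter can only lower a count. It left 25 to 30 hairpins, 24 to 26 loci, 7 to 8 lncRNA hosts and 25 to 29 protein-coding hosts. Among settings for hosts, chosen after seeing the data, lncRNA hosts fell to 5 within 100 bp of a start, against 8. Protein-coding hosts numbered 14 within 100 bp, 16 with the most upstream start alone and 17 with the 2700 strongest peaks, against 31. The signal value of the strongest summit was that of the nearest summit for 29 of 36 hairpins and was unchanged within 5000 bp for 28.

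No paired analysis was possible because the series has 1 group. Limits are the unknown read depth, the absence of a control in what was analysed, the mixture of all embryonic cells, and clustered hairpins that share peaks. The replicate lists also went into the IDR list, so they are not independent of it. The near-identical mir-10404 copies in ribosomal DNA cannot be separated by short reads.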
